A study of Homo sapiens with 18 samples.

Results

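The human cytosolic ribosomal protein genes encode the proteins of the large and small ribosomal subunits. They were taken here by symbol: RPL or RPS followed by digits and an optional A or X, plus RPLP0, RPLP1, RPLP2 and RPSA. The rule found 77 of the 23686 genes in the deposited tables, 46 of the large and 31 of the small subunit. FAU and GNB2L1 (RACK1) also encode proteins of the mature ribosome, but their symbols fall outside the rule, and they are given further on as companions.

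A ribosome holds about equal numbers of its proteins, so their mRNAs are usually kept at related levels, and a lack or excess of single proteins is sensed by the cell. Most of these mRNAs begin with a 5′ terminal oligopyrimidine (TOP) tract, a C followed by a run of pyrimidines. Through this tract LARP1 and the kinase mTOR control their translation and stability. Free RPL5 and RPL11, bound to 5S ribosomal RNA, inhibit MDM2 and so raise p53 when ribosome assembly is disturbed.

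RNA was sequenced in 18 libraries of OCI-Ly1 and TMD8, established cell lines from human diffuse large B-cell lymphoma, in a series on heterochromatin in lymphoma. JIB-04, an inhibitor of the Jumonji family of histone demethylases, was added at 150 or at 500 nM, and the control groups received its solvent alone (0.01% DMSO). Each line had 3 libraries per treatment, and per the labels these are technical replicates. All p-values therefore measure the spread between libraries, and the spread between cultures was not measured. All groups grew with 10% FBS and antibiotics, OCI-Ly1 in IMDM and TMD8 in RPMI 1640, so line and medium cannot be told apart. Ribosomal RNA was depleted from total RNA before paired-end sequencing. No treatment time is given in the sources used here.

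Libraries held 17579732 to 32651115 estimated counts in OCI-Ly1 and 9550092 to 20509500 in TMD8. The members together had 702143 to 1774141 counts in a library, and the lowest count of any member was 1186, for RPS26, so counting error was small for all of them. All 6 B-cell markers searched were present in both lines, with summed levels of 1106 to 1333 counts per 1000000 counts (CPM) in OCI-Ly1 and 2311 to 2916 in TMD8. Summed T-cell, myeloid and fibroblast markers stayed at or below 22.5, 4.09 and 31.6 CPM in any library. The fibroblast sum in TMD8, nearly all COL1A1, went from 3.87 to 4.54 CPM with DMSO to 30.3 to 31.6 CPM at 500 nM. In OCI-Ly1 the T-cell sum, from CD3D and CD3G, went from 18.8 to 22.5 CPM with DMSO to 8.40 to 9.42 at 500 nM. The sum of markers of the activated type of this lymphoma, IRF4 and FOXP1 in OCI-Ly1, went from 393 to 410 CPM to 636 to 673 there, and in TMD8, with all 4 markers present, from 5165 to 5615 to 3863 to 3959. The B-cell sum at 500 nM was 1106 to 1148 CPM in OCI-Ly1 and 2311 to 2355 in TMD8, below the 1277 to 1329 and 2747 to 2916 with DMSO. The sum of 4 germinal-centre markers was 530 to 695 CPM in OCI-Ly1 and 86.4 to 112 in TMD8. It went from 638 to 665 CPM with DMSO to 530 to 549 at 500 nM in OCI-Ly1. In TMD8 it went from 105 to 112 CPM to 86.4 to 89.9. Of these 4, BCL6 and MYBL1 were present in both lines. LMO2 had a mean under 1 CPM in OCI-Ly1, and MME had one in TMD8. The part of these markers in the results was not tested.

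The sequences around the annotated starts of 8 members are printed because the results turn on these genes. In 7 of them the TOP tract that most of the family shares was found near the annotated start. In RPS26 it was not found there by the definition given below. They are the members with the deepest falls in OCI-Ly1 (RPL3, RPS16, RPL10A, RPL14, RPSA) or TMD8 (RPS26) and the member with the largest called rise in each line (RPS19 in OCI-Ly1, RPS9 in TMD8). Each window runs 5′ to 3′ on the gene's strand from 40 bases before the start to 20 bases from it on, 60 in all, in RefSeq's GRCh38.p14, and the capitals mark the tract.
RPL3, chr22:39319604-39319663, minus strand: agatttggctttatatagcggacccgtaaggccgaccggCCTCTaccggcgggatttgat
RPS16, chr19:39435930-39435989, minus strand: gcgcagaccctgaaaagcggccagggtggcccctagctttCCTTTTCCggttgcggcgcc
RPL10A, chr6:35468361-35468420, plus strand: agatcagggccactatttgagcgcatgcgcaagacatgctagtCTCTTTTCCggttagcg
RPL14, chr3:40457299-40457358, plus strand: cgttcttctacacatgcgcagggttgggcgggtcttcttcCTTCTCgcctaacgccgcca
RPSA, chr3:39406680-39406739, plus strand: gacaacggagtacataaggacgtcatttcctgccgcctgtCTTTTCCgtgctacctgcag
RPS26, chr12:56041878-56041937, plus strand: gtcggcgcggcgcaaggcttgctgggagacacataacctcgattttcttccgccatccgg
RPS19, chr19:41860215-41860274, plus strand: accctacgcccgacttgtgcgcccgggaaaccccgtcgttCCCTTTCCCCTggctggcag
RPS9, chr19:54200818-54200877, plus strand: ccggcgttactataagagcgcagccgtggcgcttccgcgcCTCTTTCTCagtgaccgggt

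The tract was searched on the gene's strand as a C followed by at least 4 more pyrimidines, starting within 5 bases of the annotated start. A single annotated start per gene was used, so a tract at another start of the gene would be missed. Of the 77 members, 62 matched an entry in the RefSeq promoter table. Of these 62, 50 (80.6%) held the tract, against 21.1% of the 27305 promoters in the table. The start itself was tried first, then positions further from it, and pyrimidines before a match were not counted. In 42 of the 50 the match was at the start itself, though a run of pyrimidines may begin before it. Counted from the matched base on, the length ran from 5 to 19 bases with a median of 8, the longest in RPL39. RPS26 was among the 12 without a match by this definition, as were RPL10, RPL13, RPL15, RPL17, RPL27, RPL6, RPL9, RPS15, RPS27A, RPS29 and RPS4X.

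Other short motifs were searched on both strands of the 300 bases from 250 before the start. CCGGAAG, the core bound by ETS factors, stood in 33.9% of the members' promoters and 10.7% of all. AAGATGGC, the core of the YY1 site, which lies in the transcribed part of many genes, stood in 9.68% against 3.03%. GGGCGG, a GC box, stood in 54.8% against 44.6%, and TATAAA in 8.06% against 12.0%. CACGTG, an E-box, stood in 4.84% against 7.43%, and TGATGNAA, an ATF4-like motif, in 3.23% against 3.67%. These are matches of letters in a window, not measured binding.

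On the per-length scale, transcripts per 1000000 transcripts (TPM), members differed widely within a group. In OCI-Ly1 with DMSO the lowest mean was 239 TPM for RPL28 and the highest 4840 for RPS18, 20.3 times as much, with a median of 1587. RPL27A, RPL28 and RPL22 were the 3 lowest, at 241, 239 and 309 TPM, and RPS27, RPL41 and RPS18 the 3 highest, at 4498, 4510 and 4840. In TMD8 with DMSO RPL27A was lowest at 104 TPM, and the median was 1091. The 2 lines' mean levels with DMSO correlated with Pearson's r of 0.62 and Spearman's rho of 0.51 over the 77 members, given as a description. The ratio of counts to TPM follows the transcript lengths the quantification assigned. Relative to the members' median, it was 8.53 for RPL27A, 3.48 for RPL22 and 2.16 for RPL28 in OCI-Ly1 with DMSO. By counts these 3 had 917, 480 and 230 CPM there, so a low TPM need not mean few reads. For RPL27A in TMD8 with DMSO the ratio was 8.58, at 710 CPM. The ratio moved by at least 0.2 on the log2 scale in 0 of 77 members at 500 nM in either line.

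At 150 nM JIB-04 no member was called in OCI-Ly1. A gene was called at a Benjamini-Hochberg adjusted p under 0.05 from edgeR's quasi-likelihood test, and here 0 of 77 members were higher and 0 lower, against 0.748% of all 15638 tested genes called higher and 0.141% lower. At an unadjusted p under 0.05 edgeR gave 2 members higher and 4 lower, and DESeq2 called 0 and 0. The members' median log2 fold change was -0.01, and that of all tested genes 0.00 to 2 decimals. The libraries of 2 members lay wholly below those with DMSO and those of 3 wholly above, where 7.29% and 6.73% of all tested genes did so. Leaving out 150 nM replicate 3 gave 1 member called higher, and leaving out 150 nM replicate 1 gave 1 called lower.

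At 500 nM most ribosomal protein mRNAs fell in OCI-Ly1. Against DMSO, 63 of 77 members (81.8%) were called lower and 1, RPS19, higher by edgeR, where 25.9% of all tested genes were called lower and 27.7% higher. The median log2 fold change of the members was -0.24, with quartiles of -0.43 and -0.16, and that of all tested genes was 0.00. By subunit, 38 of 46 large-subunit members were called lower (median -0.25), and so were 25 of 31 of the small subunit (median -0.24). Called or not, 72 of 77 members had a log2 fold change below 0. The falls were mostly small: 32 called members fell by at least 20% and 11 by at least 0.5 on the log2 scale. In these bulk libraries a level is relative to the other RNA, and fewer cells and less RNA per cell cannot be told apart.

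The 500 nM libraries of 64 members lay wholly below the DMSO libraries, where 29.3% of all tested genes did so, and those of 2 wholly above, where 31.3% did. The call of most members as lower held with library totals as the only scaling, with 49 lower and 4 higher. On log2(TPM + 1) in limma 32 were lower and 3 higher. On that scale all tested genes had a median shift of 0.10, and the members' median minus that of all tested genes was -0.21, against -0.24 in the count test.

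**Figure D1:**
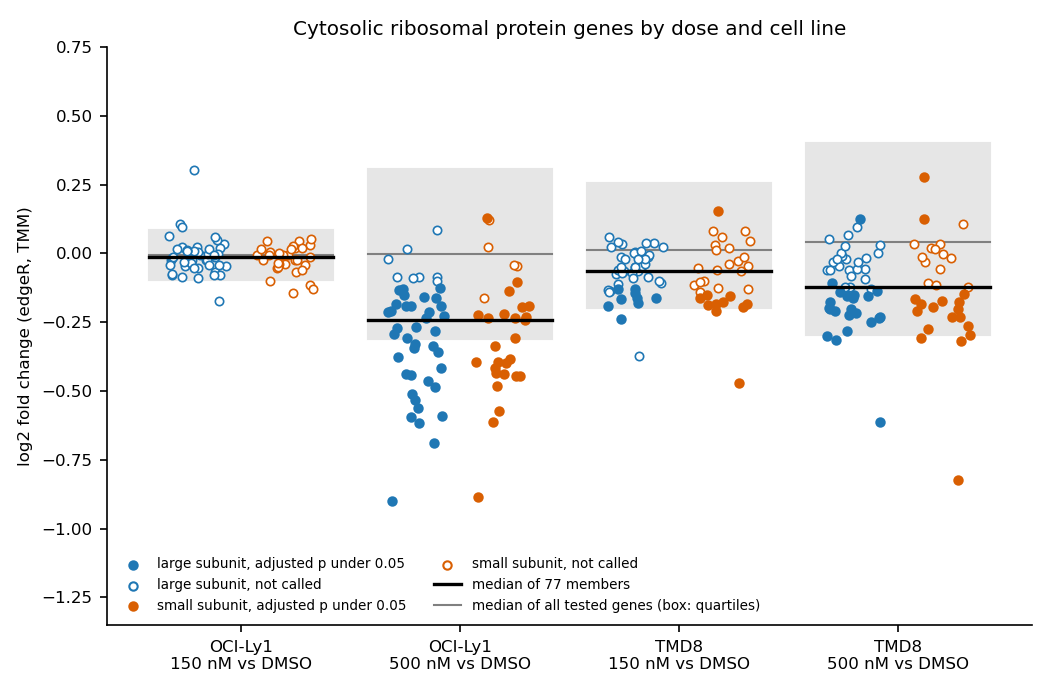
Log2 fold changes (vertical axis, edgeR with TMM scaling) of the 77 members at each dose against DMSO in each line, large subunit in blue and small subunit in orange. Filled points passed an adjusted p of 0.05, black lines are members' medians, and grey boxes and lines are the quartiles and median of all tested genes. The OCI-Ly1 members move from a median of -0.01 at 150 nM to -0.24 at 500 nM, and the TMD8 members from -0.06 to -0.12.

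The deepest falls of the large subunit in OCI-Ly1 were those of RPL3, RPL10A, RPL14 and RPL13A. RPL3, which lies near the peptidyl transferase centre, had 1047, 1010 and 926 CPM with DMSO, 971, 844 and 833 at 150 nM, then 524, 530 and 544 at 500 nM. All 500 nM libraries lay far below the others, while the 150 nM and DMSO libraries overlapped. Its log2 fold change at 500 nM was -0.90 ± 0.06 (SE, edgeR, 3 libraries per group, adjusted p = 5.22e-10).

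RPL10A, the protein of the mobile L1 stalk, had 627, 610 and 609 CPM with DMSO, 591, 575 and 594 at 150 nM, then 404, 377 and 363 at 500 nM. The 3 groups did not overlap, and the 150 nM step was not called (log2 fold change -0.07 ± 0.05). Its change at 500 nM was -0.69 ± 0.05 (edgeR, adjusted p = 1.02e-09). RPL14 had 455, 448 and 465 CPM with DMSO and 302, 301 and 290 at 500 nM, a log2 change of -0.62 ± 0.04 (edgeR, adjusted p = 2.41e-09), with 438 to 461 CPM at 150 nM overlapping DMSO. RPL13A changed by -0.59 ± 0.05 (edgeR, adjusted p = 1.41e-08), from 306 to 333 CPM with DMSO to 211 to 216 at 500 nM. RPL13A shared reads with its copy RPL13AP5, which took up to 80.0% of their joint counts, so its level is uncertain.

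Of the small subunit, RPS16 and RPSA fell most in OCI-Ly1. RPS16, whose tail reaches the peptidyl-tRNA site, had 248, 271 and 216 CPM with DMSO, 290, 231 and 239 at 150 nM, then 133, 133 and 132 at 500 nM. The 500 nM libraries were the lowest and nearly equal, and the other groups overlapped. Its log2 change at 500 nM was -0.89 ± 0.08 (edgeR, adjusted p = 6.78e-08). RPSA, a protein of the small subunit's surface also known as the laminin receptor, went from 1084, 1112 and 933 CPM with DMSO, through 1009, 947 and 904, to 678, 674 and 694. The 500 nM libraries did not overlap with either group, and the log2 change was -0.61 ± 0.06 (edgeR, adjusted p = 9.73e-08).

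RPS19, the gene most often mutated in Diamond-Blackfan anaemia, was the single member called higher in OCI-Ly1. It had 962, 957 and 872 CPM with DMSO, 976, 915 and 887 at 150 nM, then 1057, 993 and 998 at 500 nM. The 500 nM libraries stood just above all others. Its log2 fold change of 0.13 ± 0.05 (edgeR, adjusted p = 0.0373) lost its call without DMSO replicate 3 (0.08, adjusted p = 0.20) and without each of 500 nM replicates 1, 2 and 3 (adjusted p = 0.169, 0.0564 and 0.0545).

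The 3 proteins of the stalk that recruits elongation factors did not move together in OCI-Ly1. RPLP0 had 2071, 2067 and 1911 CPM with DMSO and 2204, 2126 and 2091 at 500 nM, groups that did not overlap, with a log2 change of 0.09 ± 0.04 that was not called (edgeR, adjusted p = 0.0862). RPLP1 had 598, 612 and 536 CPM with DMSO and 592, 610 and 563 at 500 nM, overlapping groups with a change of 0.02 ± 0.05. RPLP2 fell from 615, 685 and 538 to 487, 505 and 464 CPM, a change of -0.34 ± 0.07 (edgeR, adjusted p = 0.000829). Of these 3, RPLP2 alone passed the test; whether its change differs from theirs was not tested.

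Other members with known roles mostly fell in OCI-Ly1 at 500 nM. RPL5 and RPL11, the partners of 5S ribosomal RNA, changed by -0.31 ± 0.04 and -0.27 ± 0.05 (edgeR, adjusted p = 3.82e-06 and 0.000318), and RPL23, another protein that binds MDM2, by -0.42 ± 0.05 (edgeR, adjusted p = 5.89e-07). RPS3, at the entry of the mRNA channel, changed by -0.45 ± 0.05 and RPS27A, which is made as a fusion with ubiquitin, by -0.45 ± 0.06 (edgeR, adjusted p = 5.58e-07 and 8.15e-06). RPS6, the substrate of S6 kinases, fell from 1530, 1713 and 1680 CPM to 1499, 1372 and 1288, by -0.24 ± 0.05 (edgeR, adjusted p = 0.000837). RPL41, the shortest ribosomal protein, changed by -0.13 ± 0.04 (edgeR, adjusted p = 0.0155), a call lost without 500 nM replicate 2 (adjusted p = 0.0695) and with library totals as the only scaling (-0.04, adjusted p = 0.367). On log2(TPM + 1) the RPL41 value was 0.0047, where all tested genes had a median of 0.10. RPS4X, encoded on the X chromosome, changed by -0.19 ± 0.05 (edgeR, adjusted p = 0.00224).

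Against 150 nM, the 500 nM libraries of OCI-Ly1 again had RPS19 as the 1 member called higher and 62 called lower, where 25.1% and 21.1% of all tested genes were called. This comparison uses the same 500 nM libraries as the one against DMSO. The mean CPM was lowest at 500 nM in 72 members. It fell in the order DMSO, 150 nM, 500 nM in 47 members and rose in that order in 2. No member was called at 150 nM against DMSO in this line. These orders of means were not counted over all tested genes, so the counts have no background to be read against.

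In TMD8 at 150 nM members were called lower about as often as all tested genes. By edgeR 19 of 77 members (24.7%) were called lower and 1, RPS9, higher, where 25.0% of all 15363 tested genes were called lower and 19.2% higher. The median log2 fold change was -0.06, against 0.01 for all tested genes. The libraries of 28 members lay wholly below DMSO and those of 1 wholly above, where 28.3% and 23.1% of all tested genes did so. With library totals as the only scaling the split was 3 lower and 9 higher. The count of lower calls was 9 without DMSO replicate 1, 11 without 150 nM replicate 2 and 4 without 150 nM replicate 3. DMSO replicate 1 had the highest share of counts in the members, 7.57% against 7.20% and 7.15%.

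The deepest called falls in TMD8 at 150 nM were in RPS26, RPL35 and RPSA. RPS26, a protein of the mRNA exit channel, had 237, 210 and 206 CPM with DMSO, 169, 148 and 153 at 150 nM, then 124, 123 and 121 at 500 nM. The 3 groups did not overlap. Its log2 change was -0.47 ± 0.06 at 150 nM and -0.82 ± 0.06 at 500 nM (edgeR, adjusted p = 4.61e-06 and 1.78e-09). In OCI-Ly1 RPS26 had 235 to 260 CPM with DMSO and 164 to 169 at 500 nM, also without overlap, a change of -0.57 ± 0.05 (edgeR, adjusted p = 5.63e-08). Its OCI-Ly1 value at 150 nM, -0.14 ± 0.05, was not called (edgeR, adjusted p = 0.311). RPL35, beside the exit of the peptide tunnel, changed by -0.24 ± 0.06 at 150 nM and RPSA by -0.21 ± 0.06 (edgeR, adjusted p = 0.00239 and 0.00609); the RPSA call was lost without 150 nM replicate 3 (-0.12, adjusted p = 0.0768).

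RPS9, a protein of the mRNA entry channel, went the other way. In TMD8 it had 979, 959 and 956 CPM with DMSO, 1083, 1091 and 1048 at 150 nM, then 1157, 1193 and 1160 at 500 nM, 3 groups that rose without overlap. Its log2 change was 0.15 ± 0.05 at 150 nM and 0.28 ± 0.05 at 500 nM (edgeR, adjusted p = 0.0109 and 4.36e-05). The 150 nM call was lost without 150 nM replicate 2 (0.14, edgeR, adjusted p = 0.0591). On log2(TPM + 1) the 500 nM value was -0.09, where all tested genes had a median of -0.22. In OCI-Ly1 RPS9 had 398, 417 and 347 CPM with DMSO, 381, 352 and 339 at 150 nM, then 295, 297 and 289 at 500 nM. There the 500 nM libraries were the lowest, with a log2 change of -0.40 ± 0.06 (edgeR, adjusted p = 3.15e-05).

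**Figure D2:**
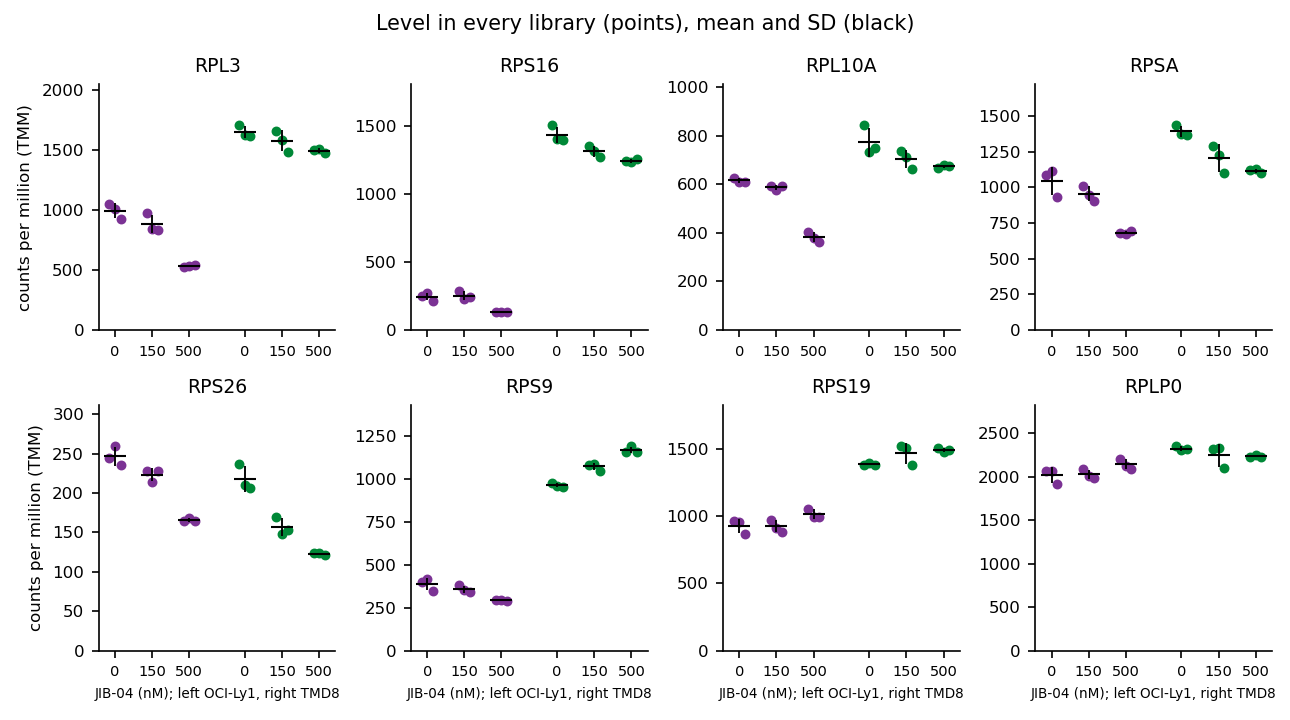
CPM (vertical axes, TMM scaling, from 0) of 8 members in every library, OCI-Ly1 in purple and TMD8 in green, by JIB-04 dose in nM (horizontal axes, 0 is DMSO). Points are libraries and black marks the mean and SD of 3. RPL3, RPS16 and RPL10A drop at 500 nM in OCI-Ly1, RPS26 is lower at 500 nM in both lines and at 150 nM in TMD8, RPS9 falls in OCI-Ly1 and rises in TMD8.

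At 500 nM in TMD8, 37 of 77 members (48.1%) were called lower and 3 higher (RPS9, RPLP1 and RPS4X) by edgeR, where 30.7% of all tested genes were called lower and 29.9% higher. The median log2 fold change of the members was -0.12, with quartiles of -0.20 and -0.02, against 0.04 for all tested genes. By subunit, 21 of 46 large-subunit members were called lower (median -0.12) and 16 of 31 of the small subunit (median -0.15). Called or not, 62 of 77 members had a log2 fold change below 0. The libraries of 46 members lay wholly below DMSO and those of 3 wholly above, where 33.3% and 33.1% of all tested genes did so. Only 2 called members, RPS26 and RPL21, fell by at least 20%. With library totals as the only scaling the split was 19 lower and 13 higher, a scaling that put the median of all tested genes at 0.13 and that of the members at -0.03. On log2(TPM + 1) in limma it was 70 lower and 0 higher, with all tested genes at a median of -0.22 and the members at -0.49.

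After RPS26, the deepest falls in TMD8 were in RPL21, RPSA, RPL35, RPS2 and RPL24. RPL21, of the large subunit, had 253, 262 and 208 CPM with DMSO, 241, 132 and 185 at 150 nM, then 198, 138 and 134 at 500 nM. Its libraries scattered widely, and DMSO and 500 nM did not overlap. The log2 change was -0.61 ± 0.16 (edgeR, adjusted p = 0.00336); RPL21P28 took up to 77.7% of the joint counts of RPL21 and its copies, so the level is uncertain. RPSA went from 1433, 1376 and 1365 CPM to 1123, 1125 and 1097, and RPL35 from 675, 585 and 588 to 492, 493 and 498. These changes of -0.32 ± 0.06 and -0.32 ± 0.06 passed the test (edgeR, adjusted p = 9.26e-05 and 0.000103). RPS2, at the mRNA entry, and RPL24, of a bridge between the subunits, changed by -0.31 ± 0.05 and -0.30 ± 0.05 (edgeR, adjusted p = 4.67e-05 and 9.39e-05).

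The other rises in TMD8 were slight. RPLP1 had 1281, 1164 and 1137 CPM with DMSO and 1276, 1303 and 1328 at 500 nM, overlapping groups with a log2 change of 0.13 ± 0.05 (edgeR, adjusted p = 0.0499). RPS4X had 945, 847 and 846 CPM with DMSO and 962, 969 and 943 at 500 nM, also overlapping, with a change of 0.12 ± 0.05 (edgeR, adjusted p = 0.0477). Without any one of DMSO replicates 2 and 3 or 500 nM replicates 1, 2 and 3, neither was called, with adjusted p from 0.0815 to 0.208 for RPLP1 and from 0.0823 to 0.185 for RPS4X. On log2(TPM + 1) the values were -0.24 for RPLP1 and -0.25 for RPS4X, where all tested genes had a median of -0.22.

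Of the members with known roles, RPS27A, RPL10A and RPS6 fell in TMD8 too. RPS27A fell by 0.30 ± 0.05, RPL10A by 0.20 ± 0.06 and RPS6 by 0.17 ± 0.06 on the log2 scale at 500 nM (edgeR, adjusted p = 8.8e-05, 0.00607 and 0.0257). The RPS6 call was lost without DMSO replicate 1 (-0.09, adjusted p = 0.0606) and without each of 500 nM replicates 1, 2 and 3 (adjusted p = 0.0858, 0.0564 and 0.0579). With library totals alone RPS6 was at -0.07 and RPL10A at -0.10, neither called. RPLP0, RPLP2, RPL5, RPL11, RPL23, RPS3 and RPL41 had log2 changes of -0.06, -0.03, -0.12, -0.01, -0.06, -0.03 and -0.13, and none of them was called. RPL11 had 369, 363 and 341 CPM with DMSO and 343, 358 and 365 at 500 nM, overlapping groups.

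Between 150 and 500 nM in TMD8, edgeR called 1 member lower, RPS26 (-0.35 ± 0.06, adjusted p = 0.00029), and 0 higher, where 15.0% and 13.7% of all tested genes were called. At an unadjusted p under 0.05 it gave 8 lower and 1 higher, and DESeq2 called 6 lower and 1 higher. Without 150 nM replicate 3 the count of lower calls was 10, and without 150 nM replicate 2 it was 2. The mean CPM fell in the order DMSO, 150 nM, 500 nM in 55 members and rose in that order in 8. Here too the orders were not counted over all tested genes.

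Of the 77 members, 34 were called lower at 500 nM in both lines, and 9 were called in neither; of 14483 genes tested in both lines, 13.7% and 20.7% were. RPS9 and RPS4X were called lower in OCI-Ly1 and higher in TMD8, 27 more were called lower in OCI-Ly1 and not called in TMD8, and 3, namely RPL19, RPL30 and RPL36, were called lower in TMD8 and not in OCI-Ly1. Over all genes tested in both, these shares were 3.49, 9.49 and 13.0%. The remaining 2 were RPS19 and RPLP1. The members' log2 fold changes at 500 nM in the lines correlated with a Pearson's r of 0.39 and a Spearman's rho of 0.42 over 77 members, given as a description.

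**Figure D3:**
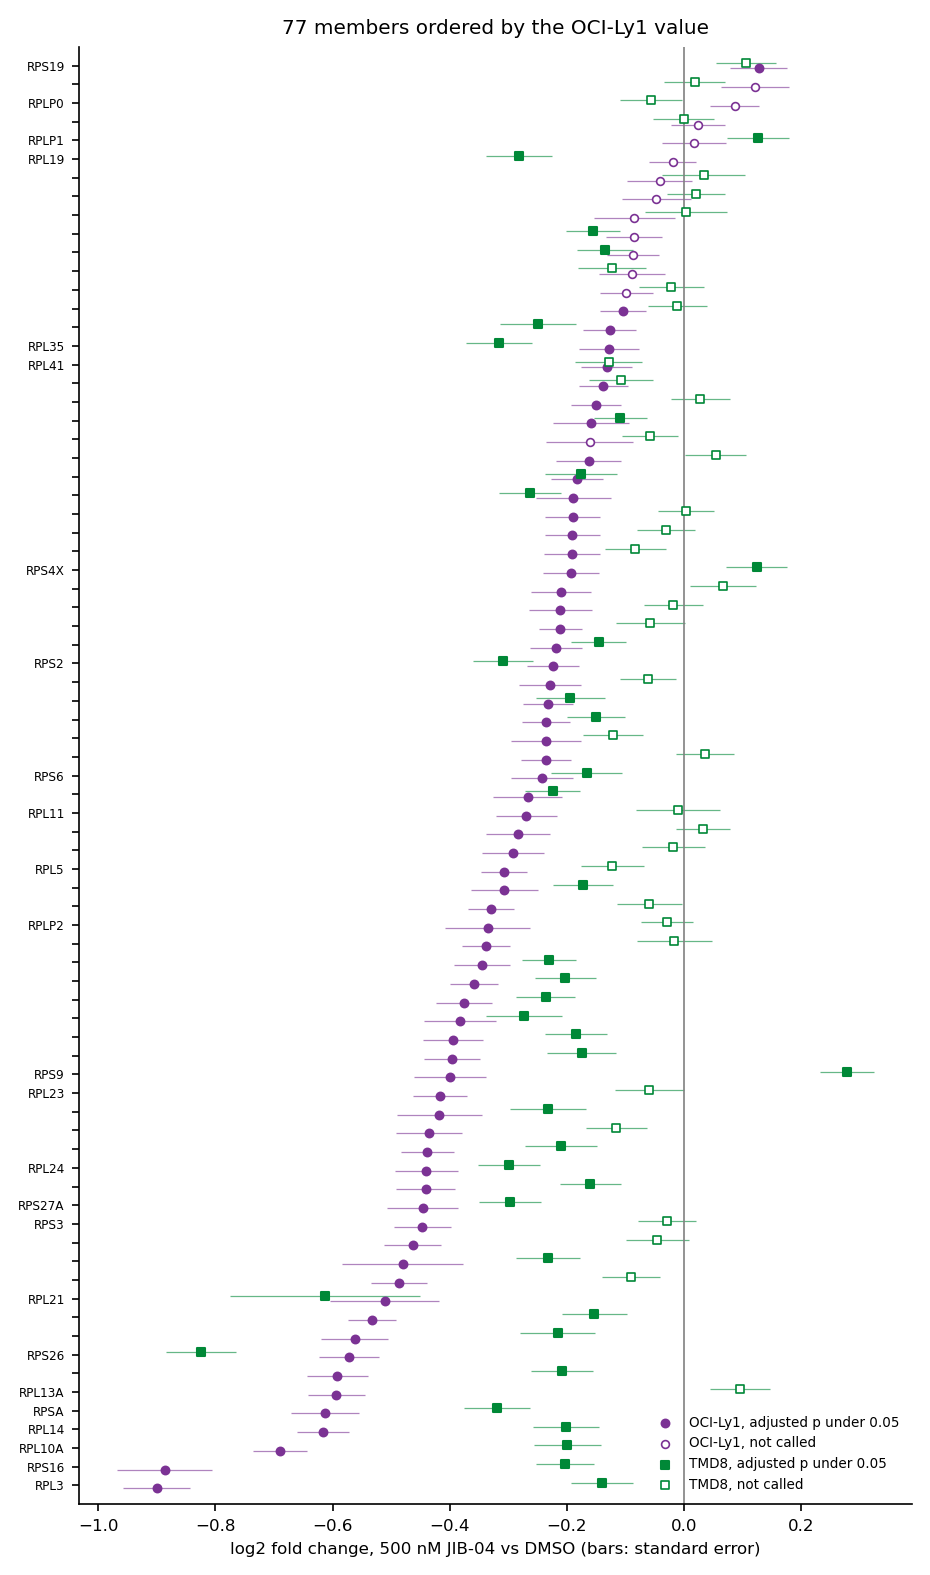
Log2 fold changes at 500 nM against DMSO (horizontal axis) of all 77 members (rows, with names for those described in the text), OCI-Ly1 as purple circles and TMD8 as green squares, with standard errors. Filled symbols passed an adjusted p of 0.05 in edgeR. OCI-Ly1 values run from -0.90 for RPL3 to 0.13 for RPS19, and TMD8 values from -0.82 for RPS26 to 0.28 for RPS9.

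Whether the lines responded differently was tested by an interaction term over the 18 libraries, given as OCI-Ly1 minus TMD8. At 500 nM, 24 of 77 members (31.2%) had a lower value in OCI-Ly1 and 3 a higher one by edgeR, where 18.1% of all 16604 tested genes were called lower and 28.2% higher. The members' median difference was -0.12, and that of all tested genes 0.05. All 24 were called lower in OCI-Ly1 against DMSO, and 9 of them were called lower in TMD8 too. The deepest differences were -0.73 ± 0.09 for RPL3, -0.66 ± 0.07 for RPL13A and -0.65 ± 0.10 for RPS16 (edgeR, adjusted p = 2.09e-07, 6.88e-08 and 1.31e-05). On log2(TPM + 1) these 3 differences were -0.25, -0.18 and -0.17, and none was called. The median of all tested genes on that scale was 0.38. RPS9 was next with -0.65 ± 0.08 (edgeR, adjusted p = 5.61e-07); it is named beyond the rule after its value was seen.

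The 3 members with a higher value in OCI-Ly1 had the larger fall in TMD8. RPL19, of a bridge between the subunits, had 1100, 1051 and 1086 CPM in OCI-Ly1 with DMSO and 1084, 1056 and 1053 at 500 nM, overlapping groups. In TMD8 it went from 1358, 1179 and 1189 to 1013, 1018 and 1034 CPM, with no overlap. The difference was 0.29 ± 0.08 for RPL19, 0.28 ± 0.09 for RPS26 and 0.22 ± 0.09 for RPL35 (edgeR, adjusted p = 0.00283, 0.00823 and 0.0371).

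The direction of this difference depended on the scale. On log2(TPM + 1) 43 members had a higher value in OCI-Ly1 and 0 a lower one, and on that scale the median of all tested genes was 0.38 and that of the members 0.36. With each library's log2(TPM + 1) median set to 0 the split was 20 lower and 2 higher, and with library totals alone it was 37 lower and 3 higher. Without TMD8 DMSO replicate 1 the count test called 35 lower.

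At 150 nM the difference between the lines was called in 3 members, 2 higher in OCI-Ly1 and 1 lower, where 15.0% of all tested genes were called higher and 8.33% lower. They were RPL21 (0.68 ± 0.21), RPS26 (0.34 ± 0.08) and RPS9 (-0.26 ± 0.08), with edgeR adjusted p of 0.0191, 0.00448 and 0.0219. With the counts of its copies summed in, RPL21 was at 0.12 and no longer called (adjusted p = 0.336). The RPL21 call was also lost without OCI-Ly1 150 nM replicate 2, TMD8 DMSO replicate 1 or TMD8 150 nM replicate 2 (adjusted p = 0.0556, 0.0507 and 0.0704). The RPS9 call was lost without OCI-Ly1 DMSO replicate 1 or 2, OCI-Ly1 150 nM replicate 2 or 3, or TMD8 150 nM replicate 2, with adjusted p from 0.0525 to 0.0995.

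The members' summed level gave a different picture in each line and unit. In OCI-Ly1 they took 6.03, 6.09 and 5.90% of the counts with DMSO, then 6.09, 5.91 and 5.96% at 150 nM, then 5.43, 5.28 and 5.27% at 500 nM. The 500 nM libraries lay below all others, a mean of 5.328 ± 0.092% (SD, n = 3) against 6.008 ± 0.095% (n = 3), or 11.3% less. In an exact 2-sided permutation test p was 0.10, the smallest 3 against 3 libraries allow. In TMD8 the DMSO libraries held 7.57, 7.20 and 7.15%, those at 150 nM 7.52, 7.41 and 7.37%, and those at 500 nM 7.27, 7.34 and 7.35%. The DMSO libraries overlapped both other groups, and those at 150 nM all lay above those at 500 nM. The means were 7.31, 7.44 and 7.32%, and between the doses the exact 2-sided permutation p was 0.10, the smallest possible.

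Summed TPM fell in both lines, while microRNA loci, RPPH1 and RMRP together took more of the total. It went from 136009 ± 1690 to 125607 ± 639 (SD, n = 3) in OCI-Ly1 and from 90883 ± 11773 to 65478 ± 4417 (n = 3) in TMD8 at 500 nM, 7.65% and 28.0% less (exact permutation p = 0.10 in each, the smallest possible). MicroRNA loci (symbols that begin with MIR), RPPH1 and RMRP together held 16.1% of all TPM in OCI-Ly1 with DMSO and 22.8% at 500 nM, and 58.2% and 71.8% in TMD8. Their share of the counts went from 1.61 to 2.08% in OCI-Ly1, while in TMD8 it went from 3.35 to 5.81%. With TPM rescaled without these loci, an alternative chosen after seeing the data, the members' sum was 0.441% higher at 500 nM in OCI-Ly1 and 6.96% higher in TMD8.

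**Figure D4:**
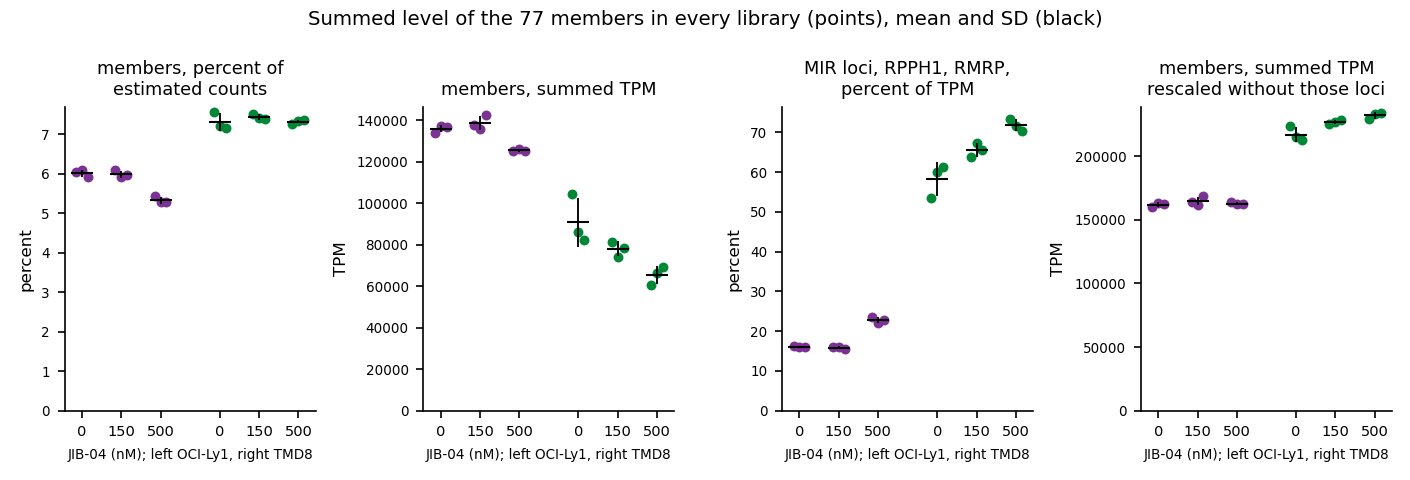
Summed level of the 77 members in every library (points, with mean and SD of 3 in black) by JIB-04 dose in nM, OCI-Ly1 in purple and TMD8 in green, all axes from 0. The panels show the percent of counts, the summed TPM, the percent of TPM in microRNA loci, RPPH1 and RMRP, and the members' TPM rescaled without those loci. The summed TPM falls where those loci rise, and the rescaled sum does not fall in either line.

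The balance of the subunits did not shift beyond its spread. The TPM of the large-subunit members over that of the small-subunit members was 1.275 ± 0.042 (SD, n = 3) with DMSO and 1.259 ± 0.012 (n = 3) at 500 nM in OCI-Ly1. In TMD8 it was 1.069 ± 0.007 with DMSO and 1.071 ± 0.013 at 500 nM (n = 3 each). The exact 2-sided permutation p was 0.60 and 0.80.

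Members with and without a TOP tract found near the annotated start had similar medians. At 500 nM in OCI-Ly1 the 50 members with a match had a median log2 fold change of -0.28 and the 12 without a match -0.28. Of them 41 and 12 were called lower. Other starts were not searched, so the 12 may include members with a tract. In TMD8 the medians were -0.13 and -0.14, and 25 and 6 were called lower. By the ETS core, the 21 members with CCGGAAG had a median of -0.34 in OCI-Ly1 and the 41 without it -0.24, and in TMD8 -0.12 and -0.13. The log2 fold change had little relation to level: its Spearman's rho with log2 TPM under DMSO was 0.21 in OCI-Ly1 and 0.10 in TMD8 over 77 members, given as a description.

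Companion genes of the cytosolic ribosome were given the same test. FAU, a fusion of a ubiquitin-like protein with a ribosomal protein, changed by -0.25 in OCI-Ly1 and by -0.31 in TMD8 at 500 nM, both called by edgeR (adjusted p = 0.000507 and 1.71e-05). GNB2L1, which encodes the scaffold RACK1, changed by -0.21 in OCI-Ly1 (edgeR, adjusted p = 0.00031) and by -0.12 in TMD8, where it was not called. Of 8 tested paralogs outside the rule, 3 were called higher and 4 lower in OCI-Ly1 and 2 and 4 in TMD8. RPS27L, a p53 target and paralog of RPS27, rose by 0.48 and 0.62, and RPL22L1, the paralog of RPL22, was at -0.55 and -0.52 (edgeR, adjusted p = 6.45e-05, 1.61e-07, 0.000315 and 6.57e-06). RPL26L1 and RPL39L were called in 1 line each, RPL26L1 with -0.61 in TMD8 against 0.06 in OCI-Ly1, and RPL39L with 0.37 in OCI-Ly1 against -0.25 in TMD8; both differences between the lines passed the test (0.70 and 0.65, edgeR, adjusted p = 1.35e-05 and 0.000278).

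Mitochondrial ribosomal protein genes, taken by their MRPL and MRPS symbols, moved more in TMD8. Of 76 tested, 72 were called lower and 0 higher in TMD8 at 500 nM (median -0.59), and 43 lower and 8 higher in OCI-Ly1 (median -0.20). The difference between the lines was called higher in OCI-Ly1 for 55 (72.4%) and lower for 2 (2.63%), against 28.2% and 18.1% of all tested genes. In this count test the order was opposite to that of the cytosolic members. The order of the cytosolic members itself turned on log2(TPM + 1), with 43 higher and 0 lower. MRPL12 had the deepest TMD8 value of the list, -1.32 ± 0.06, against -0.71 ± 0.10 in OCI-Ly1 (edgeR, adjusted p = 4.47e-12 and 6.92e-06).

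Other mRNAs known to carry a TOP tract moved in both directions. Of 20, 11 were called lower and 4 higher in OCI-Ly1 at 500 nM, and 10 lower and 2 higher in TMD8, with medians of -0.17 and -0.13. Lower calls were thus more frequent, and higher calls less frequent, than among all tested genes. There 25.9% were called lower and 27.7% higher in OCI-Ly1, and 30.7% and 29.9% in TMD8. HNRNPA1 and NPM1, both RNA-binding proteins, were at -0.69 and -0.64 in OCI-Ly1, and TMD8 had -0.56 and -0.55 for them; all 4 values were called (edgeR, adjusted p from 6.33e-08 to 4.3e-07 for NPM1, and 5.74e-09 and 4.07e-07 for HNRNPA1). GAS5, a noncoding host of small nucleolar RNAs, rose by 0.80 in OCI-Ly1 (edgeR, adjusted p = 2.04e-09) and was at 0.04 in TMD8. VIM, which encodes vimentin, rose by 1.92 ± 0.40 in OCI-Ly1 (edgeR, adjusted p = 0.000656) and was at 0.05 in TMD8.

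Among 22 genes that regulate TOP mRNAs, 10 (45.5%) were called higher and 8 (36.4%) lower in OCI-Ly1 at 500 nM. In TMD8 8 (36.4%) were called higher and 10 (45.5%) lower. Over all tested genes, 27.7 and 25.9% were called higher and lower in OCI-Ly1, and 29.9 and 30.7% in TMD8. SESN2 and DDIT4, stress-induced inhibitors of mTOR signalling, rose by 3.68 and 2.88 in OCI-Ly1 and by 3.67 and 2.26 in TMD8 (edgeR, adjusted p from 5.34e-16 to 3.18e-13 for SESN2, and 3.59e-12 and 1.49e-12 for DDIT4). EIF4EBP1, a translation repressor that mTOR phosphorylates, rose by 2.06 and 0.28, a difference of 1.81 between the lines (edgeR, adjusted p = 3.92e-14, 0.00226 and 5.79e-14). MLST8, a subunit of the mTOR complexes, rose by 1.145 in OCI-Ly1 and was at -0.35 in TMD8 (edgeR, adjusted p = 4.05e-10 and 0.000119). LARP1, the protein that binds the TOP tract, was at -0.53 and -0.55 (edgeR, adjusted p = 2.47e-07 and 6.89e-09).

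The dedicated chaperones of ribosomal proteins fell or did not pass the test. Of 8 dedicated chaperones, 5 (62.5%) were called lower in OCI-Ly1 and 6 (75.0%) in TMD8 and 0 higher in either at 500 nM. Over all tested genes, 25.9% were called lower and 27.7% higher in OCI-Ly1, and 30.7 and 29.9% in TMD8. GRWD1, a chaperone of RPL3, was at -0.43 and -0.66, and LTV1, which places RPS3 and other proteins of the small subunit, at -0.34 and -0.76 (edgeR, adjusted p from 1.24e-08 to 6.36e-05 for GRWD1, and 0.000175 and 3.63e-07 for LTV1). TSR2, the chaperone of RPS26, had 0.07 and -0.14, neither called. Of 9 genes of ribosomal protein quality control, 4 (44.4%) were called higher and 1 (11.1%) lower in OCI-Ly1. In TMD8 2 (22.2%) were called higher and 4 (44.4%) lower, to be read against the same shares of all tested genes. MDM2 rose by 0.17 and 0.58 (edgeR, adjusted p = 0.013 and 1.78e-08).

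Levels under DMSO differed strongly between the lines for some members. On a joint scaling of all 18 libraries, 11 members were at least 2 times higher in TMD8 and 3 at least 2 times higher in OCI-Ly1, with a median ratio of 1.17. RPL28, of the large subunit, had 221 ± 21 CPM (SD, n = 3) in OCI-Ly1 and 3751 ± 447 (n = 3) in TMD8, 17.0 times as much. RPS16 and RPL13A were 6.36 and 5.85 times higher in TMD8. RPL7, RPL11 and RPS12 were lower there, at 0.411, 0.438 and 0.470 times the OCI-Ly1 level. RPL13A is uncertain, as above, and no test was made of these levels, since line and medium cannot be told apart.

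The genes at the top of that order shared a chromosome. Of the 10 members with the highest ratio of TMD8 to OCI-Ly1, 9 lie on chromosome 19, where 12 of the 77 members are, and 0 of the 10 with the lowest ratio do. The other was RPLP1, on chromosome 15. RPL28, RPS16, RPL13A, RPL18, RPS15, RPS9 and RPS28 were among the 9, and RPL36 and RPS19 had ratios above 1 too. Over all 1062 genes on chromosome 19 in the fit, the median log2 ratio was 0.43, against 0.02 for 12575 genes elsewhere, and 34.2% of them against 19.7% were at least 2 times higher in TMD8. Members' GC content went with the ratio as well, with a Pearson's r of 0.45 and a Spearman's rho of 0.46 over 77 members. Off chromosome 19 Pearson's r was 0.25 over 65 members. These are descriptions, and the parts of chromosome and GC content were not tested.

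**Figure D5:**
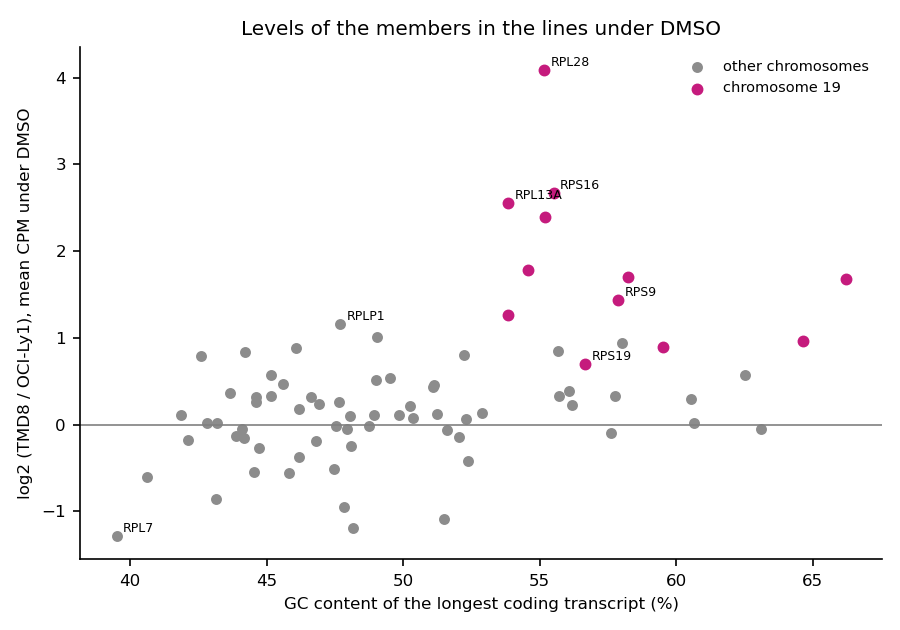
Log2 ratio of the mean CPM in TMD8 to that in OCI-Ly1 under DMSO (vertical axis) against the GC content of each member's longest coding transcript in percent (horizontal axis). Points are the 77 members, with the 12 on chromosome 19 in pink, all of which lie above 0. RPL28 stands highest and RPL7 lowest.

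The genes outside the family whose log2 CPM followed the members' mean log2 CPM most closely over the 9 libraries of a line were, in OCI-Ly1, PARK7 (Pearson's r 0.996), PLAA, HIST1H2AD, HIST1H2AB and HIST1H4E. In TMD8 they were ANKRD13A (0.988), GPD2, NAP1L1, PRKRA and SMCHD1. The lists have no gene in common. Each r rests on 9 libraries of 3 doses and is given as a description of likeness.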

How the data were processed

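Libraries of 2 cell lines at 3 treatments were compared. Per the labels' protocols, rRNA-depleted RNA was sequenced on an Illumina HiSeq. The submitters' processing notes name kallisto 0.46.0, R 4.3.1, DESeq2 1.40.2 and the build hg19; the index and the step from transcripts to genes are not given in the sources used here. The authors deposited estimated counts, which need not be whole and were rounded here, and TPM, which they scaled to 1000000 per library; each line had its own tables. The main test was edgeR 4.0.16 (R 4.3.3) on the counts: TMM, its low-count filter by group, quasi-likelihood, 9 libraries of a line in 1 fit, and Benjamini-Hochberg adjustment over all tested genes. All 77 members passed the filter. The script was tested on simulated data. Levels are CPM with TMM factors. Alternatives used library totals, DESeq2 1.42.0 or its size factors, TMM factors without the members, no filter, and limma 3.58.1 on log2(TPM + 1), also centred, or log2(TPM + 0.1). Others left out single libraries, added the replicate number as a block, summed near-identical copies into the member, or removed a GC trend (statsmodels 0.14.6 lowess). GC content and chromosomes came from GENCODE's longest coding transcript by symbol, and promoters from RefSeq's GRCh38.p14 table.

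Named were, by rule, up to 6 called members in each direction, by size of change, at 500 nM in each line, up to 3 in each direction at 150 nM and for the difference between lines, 13 fixed members, and at most 4 genes of each companion list. Other companion genes in the text were chosen after their values were seen. Members and lists were chosen with earlier results of these data known. Counting without stated strand cannot separate antisense or overlapping genes, and RPL13A, RPL21 and RPL36A were among the members that shared reads with copies. Some single-gene values are not reported here. Pairs of libraries within a group differed beyond sampling noise (chi-square per degree of freedom 1.65 to 11.3), so all were kept.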

Additional observations from a re-analysis of the deposited data

Results flagged for a closer look

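Given here are the largest differences in response between the lines that passed the test, at most 3 in each direction at each dose; it called 2 members higher in OCI-Ly1 and 1 lower at 150 nM, and 3 higher and 24 lower at 500 nM. All values are log2 fold changes in OCI-Ly1 minus those in TMD8, from edgeR's fit of all 18 libraries. At 150 nM they were 0.68 for RPL21, 0.34 for RPS26 and -0.26 for RPS9. At 500 nM they were -0.66 for RPL13A, 0.29 for RPL19, -0.73 for RPL3, 0.22 for RPL35, -0.65 for RPS16 and 0.28 for RPS26. RPS26 and RPS9 passed it at both doses, RPS26 with the deeper fall in TMD8 each time and RPS9 with -0.65 at 500 nM. RPL3, RPS16 and RPL13A had log2 fold changes of -0.14, -0.20 and 0.10 in TMD8 against -0.90, -0.89 and -0.59 in OCI-Ly1. The RPL35 call was lost when any of 7 libraries was left out (adjusted p from 0.0595 to 0.122). The cause of these differences was not tested, and line and medium cannot be told apart.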

How the results depend on the processing

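Counts of called members, as higher and lower, and log2 ratios of summed TPM are given under each alternative that moved them by over 1.5 times or beyond their spread. The cause was not tested. For OCI-Ly1 at 150 nM (0 and 0), no low-count filter gave 1 higher, and leaving out 1 library gave 0 to 1 higher and 0 to 1 lower. For OCI-Ly1 at 500 nM (1 and 63), higher calls were 4 with library totals, 3 with each TPM pseudocount, 0 with centred TPM, 2 with the replicate block and 0 to 2 leaving out 1 library; lower calls were 32 with each TPM pseudocount and 58 to 63 leaving out 1 library. Against 150 nM (1 and 62), higher calls were 3 with library totals and each TPM pseudocount, 0 with no filter or centred TPM and 0 to 1 leaving out 1 library; lower calls were 35 with each TPM pseudocount and 59 to 61 leaving out 1 library. For TMD8 at 150 nM (1 and 19), library totals gave 9 and 3, each TPM pseudocount 0 and 9, centred TPM 0 higher, and leaving out 1 library 0 to 2 higher and 4 to 26 lower, the 26 without 150 nM replicate 1. For TMD8 at 500 nM (3 and 37), higher calls were 1 with DESeq2 size factors, TMM factors without the members, no filter or centred TPM, and leaving out 1 library gave 1 to 5 higher, the 5 without DMSO replicate 1, and 28 to 40 lower. Library totals gave 13 and 19, log2(TPM + 1) 0 and 70, and log2(TPM + 0.1) 0 and 68. For TMD8 at 500 against 150 nM (0 and 1), lower calls were 3 with DESeq2 size factors, 4 with library totals, 12 with no filter, 6 with DESeq2, 7 and 6 with TPM pseudocounts of 1 and 0.1, 4 with centred TPM, 3 with the replicate block and 1 to 10 leaving out 1 library; higher calls were 1 with library totals or DESeq2. For the difference at 150 nM (2 and 1), higher calls were 4 with DESeq2, 1 with copies summed and 1 to 4 leaving out 1 library, and lower calls 0 with any TPM setting and 0 to 1 leaving out 1 library. For the difference at 500 nM (3 and 24), library totals gave 37 lower, log2(TPM + 1) 43 and 0, log2(TPM + 0.1) 39 and 0, and leaving out 1 library 2 to 4 higher and 21 to 35 lower.

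The log2 ratio of summed TPM at 500 nM in OCI-Ly1 was -0.11 (-0.12 to -0.11 leaving out 1 library), -0.17 as a share of counts, -0.22 without mitochondrial and histone genes and 0.0063 without microRNA loci, RPPH1 and RMRP. Against 150 nM it was -0.14 (-0.16 to -0.12), -0.24 and -0.017 without the same sets. In TMD8 it was -0.22 at 150 nM (-0.29 to -0.11), 0.025 as a share and 0.064 without the microRNA set. At 500 nM it was -0.47 (-0.54 to -0.36), 0.0026 and 0.097, and between the doses -0.25 (-0.30 to -0.20), -0.023 and 0.033. Signs turned with TPM for RPL41 in OCI-Ly1 (0.0047 with either pseudocount) and in TMD8 for RPS9 (-0.0939 with either), RPLP1 (-0.2434 and -0.2435) and RPS4X (-0.2473 and -0.2477).

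The replicate numbers pair nothing by the labels: deviations of same-numbered libraries correlated at -0.0696 to 0.259. With the replicate block the counts at 500 nM were 2 and 64 for OCI-Ly1, 2 and 36 for TMD8, with 1 and 21 in TMD8 at 150 nM, and 4 and 27 for the difference at 500 nM. Removing a GC trend, chosen after seeing the data, gave medians of -0.27 in OCI-Ly1 and -0.12 in TMD8 at 500 nM. Over 50 named results, 746 of 854 alternatives kept the direction and the side of the threshold. Technical libraries limit all p-values, and depth does not limit the members.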
